A study of Mus musculus with 4 samples.

Results

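Endothelin and angiotensin are the peptide systems that set the tone of blood vessels, and both also act on heart muscle cells and fibroblasts. Their genes were examined in hearts of Jun delta mu mice, which lack the AP-1 subunit c-Jun in striated muscle, and in hearts of Jun f/f littermates, whose floxed Jun alleles stayed intact. The 8 genes listed as members were the ligands Edn1 and Agt, the enzymes Ece1 and Ace, and the receptors Ednra, Ednrb, Agtr1a and Agtr2. All probe sets with 1 of these symbols as their only gene in the platform annotation were taken, which gave 12 probe sets of 7 genes among the 45037 probe sets and 18193 named genes tested, and Ednra was not analysed here. Of the 12, 1 exceeded 1.3-fold at an unadjusted p under 0.05 in limma. It was a probe set of the endothelin receptor Ednrb, lower in Jun delta mu hearts at 75.2% of the Jun f/f signal. In limma 1.53% of all probe sets passed. By Student's test, which the study's methods name, 0 of the 12 passed, against 0.444% of all probe sets. No probe set of a ligand, an enzyme or an angiotensin receptor passed in either direction.

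RNA came from 2 Jun delta mu and 2 Jun f/f hearts of mice at 10 weeks of age on a mixed 129/Ola-C57BL/6 background, with 1 Affymetrix mouse genome array per heart and no pressure overload. Both genotypes carried floxed Jun on both alleles. The Jun delta mu mice also carried Cre recombinase under the muscle creatine kinase promoter, which is active in striated muscle, so that endothelial cells, smooth muscle and fibroblasts of these hearts keep the gene. One label speaks of cells cultured from digested ventricles, whereas titles, source and methods speak of whole hearts, and the conflict was not resolved. Signals were summarised by RMA, a method that reduces the probes of a set to 1 log2 value, and a difference is the mean of Jun delta mu minus the mean of Jun f/f hearts. A probe set passed the study's threshold when the difference exceeded 1.3-fold at an unadjusted p under 0.05 in limma. The cutoffs are the study's, but its methods name Student's test, so a call here is not a call by the study's own test.

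Both Jun probe sets were lower in Jun delta mu hearts, with differences of -1.57 and -1.24. The second was at 6.58 and 6.86 in Jun delta mu hearts, against 7.78 and 8.15 in Jun f/f hearts. The 8 cardiomyocyte markers examined, Myh6 and Tnnt2 among them, lay between 12.77 and 14.84 on all arrays. Array medians lay between 5.45 and 5.47. Jun f/f replicate 1 stood apart, with 104 probe sets over 2-fold away from what the remaining arrays averaged, where the others had 24 to 33. Jun delta mu replicate 2 stood apart in atrial genes. The atrial light chain Myl7 was at 5.02 and 9.11 in Jun delta mu hearts, against 4.88 and 5.51 in Jun f/f hearts. The atrial calcium pump regulator Sln was at 4.10 and 8.11 in Jun delta mu hearts, against 3.81 and 4.15 in Jun f/f hearts. Only that array was high, and Jun delta mu replicate 1 lay within the range of the Jun f/f arrays for Myl7 and Sln. Over all probe sets, 0.568% passed the study's threshold as higher and 0.959% as lower. None reached an adjusted p under 0.05 in limma, where the smallest was 0.237, whereas 5.16% had an unadjusted p under 0.05, and none reached it by Student's test with the same adjustment.

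In the endothelin system, endothelial cells make a precursor from Edn1, endothelin-converting enzyme cleaves its intermediate to the active peptide, and the peptide acts through 2 receptors. The A receptor on smooth muscle and heart muscle constricts and promotes growth. The B receptor on endothelium releases nitric oxide and clears the peptide from the blood. In the angiotensin system, renin cuts angiotensinogen (Agt) to angiotensin I, and angiotensin-converting enzyme (Ace) trims this to angiotensin II. The type 1 receptor carries most of the known actions of angiotensin II on vessels and heart, and the type 2 receptor often opposes it and is found mainly before birth.

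Neither ligand changed past the threshold. Edn1, which encodes the precursor of endothelin-1, lies on chromosome 13 of GRCm38 from 42301476 to 42307990 and has 1 probe set. Its log2 signal was 6.15 and 6.42 in Jun delta mu hearts, against 5.89 and 6.24 in Jun f/f hearts. The groups overlapped, since Jun f/f replicate 2 exceeded Jun delta mu replicate 1, and the lowest value was that of Jun f/f replicate 1. The difference was 0.22 (standard error 0.16, 95% interval -0.18 to 0.62, adjusted p = 0.904 in limma). Leaving out Jun f/f replicate 1 gave 0.040 and leaving out Jun f/f replicate 2 gave 0.40. Leaving out Jun delta mu replicate 1 gave 0.35, and leaving out replicate 2, the array with high atrial genes, gave 0.083. The size thus moved with every array left out. Agt, the angiotensin precursor, lies on chromosome 8 from 124556587 to 124569706. Its signal was 6.63 and 6.50 in Jun delta mu hearts, against 6.44 and 6.55 in Jun f/f hearts. These groups overlapped as well, and the difference was 0.074 (standard error 0.10, interval -0.18 to 0.32, adjusted p = 0.945). It stayed between 0.0092 and 0.14 whichever array was left out.

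Among the enzymes, no probe set passed either. Ece1, which encodes endothelin-converting enzyme 1, lies on chromosome 4 from 137862237 to 137965229 and has 3 probe sets. The first, 1455741_a_at, was at 8.80 and 8.82 in Jun delta mu hearts, against 8.86 and 8.95 in Jun f/f hearts. Both Jun delta mu arrays were the lower ones, but the difference was -0.093 (standard error 0.090, interval -0.32 to 0.13). The next, 1434177_at, was at 8.59 and 8.62 in Jun delta mu hearts, against 8.25 and 8.63 in Jun f/f hearts. Here 3 arrays lay close together and Jun f/f replicate 1 was low. The difference of 0.17 became -0.024 when that array was left out and 0.36 when the other Jun f/f array was. The third, 1441423_at, was dim, at 4.29 and 4.75 in Jun delta mu hearts and at 4.37 and 4.52 in Jun f/f hearts. It did not exceed the level of genes not expected in heart (at most 5.74 on any array). Below that level lay 95% of the 144 probe sets of olfactory and vomeronasal receptors, keratin-associated proteins and defensins. The 3 probe sets of Ece1 therefore did not share a direction.

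Ace, on chromosome 11 from 105967948 to 105989964, encodes the membrane peptidase of vascular endothelium that makes angiotensin II and breaks down bradykinin. By probe set 1451911_a_at its signal was 7.76 and 7.94 in Jun delta mu hearts, against 7.57 and 7.78 in Jun f/f hearts. By probe set 1427034_at it was 7.69 and 7.90 in Jun delta mu hearts, against 7.72 and 7.62 in Jun f/f hearts. Jun delta mu replicate 2 was the highest array for both, and the groups overlapped for both. The differences were 0.17 (standard error 0.12, interval -0.12 to 0.47) and 0.12 (standard error 0.11, interval -0.16 to 0.40), with adjusted p = 0.898 and adjusted p = 0.92. The size of both depended on single arrays, with 0.070 to 0.28 and 0.016 to 0.22 when 1 array was left out, but the sign did not. Without Jun delta mu replicate 2, the array with high atrial genes, they were 0.085 and 0.016.

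**Figure D1:**
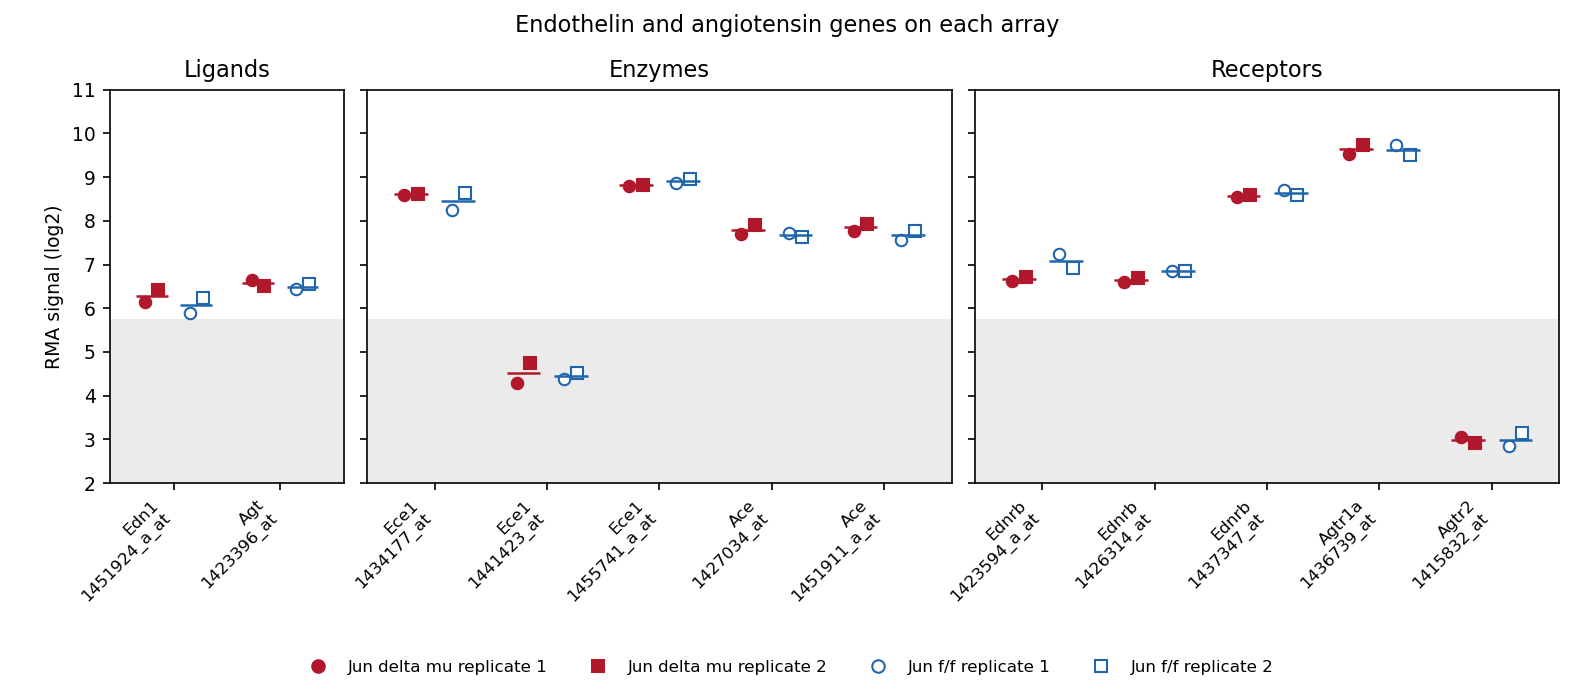
RMA signal (log2) of the 12 probe sets on each array, grouped as ligands, enzymes and receptors, with filled red symbols for Jun delta mu hearts, open blue symbols for Jun f/f hearts and lines at the group means. The grey band ends at 5.74, the highest of the 4 arrays' 95th percentiles of genes not expected in heart, and holds 1 probe set of Ece1 and that of Agtr2.

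Ednrb was the only member gene with a probe set past the threshold. It encodes the endothelin B receptor and lies on chromosome 14 from 103814615 to 103844508. By probe set 1423594_a_at its signal was 6.62 and 6.72 in Jun delta mu hearts, against 7.23 and 6.92 in Jun f/f hearts. Both Jun delta mu arrays lay below both Jun f/f arrays, with the highest value on Jun f/f replicate 1. The difference was -0.41 (standard error 0.13, interval -0.74 to -0.085), with adjusted p = 0.896 in limma, and the unadjusted p was 0.0222. The study lists this probe set among the genes it chose on these same arrays, so its call is not independent evidence. With 1 array left out the call was lost in 3 of 4 cases, at -0.26 without Jun f/f replicate 1, -0.36 without Jun delta mu replicate 1 and -0.46 without Jun delta mu replicate 2. It held at -0.57 when Jun f/f replicate 2 was left out, the setting in which the most probe sets passed. By Student's test, which the methods name, the probe set did not pass, and 0.444% of all probe sets did, 0.246% as lower.

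The other probe sets of Ednrb were lower by less. Probe set 1426314_at was at 6.61 and 6.69 in Jun delta mu hearts, against 6.86 and 6.85 in Jun f/f hearts, a difference of -0.20 (standard error 0.089, interval -0.43 to 0.018). Probe set 1437347_at was at 8.54 and 8.58 in Jun delta mu hearts, against 8.70 and 8.59 in Jun f/f hearts, a difference of -0.080 (standard error 0.092, interval -0.31 to 0.15). For all 3 probe sets the Jun delta mu arrays were below the Jun f/f arrays, and the sign held whichever array was left out, although the size ran between -0.41 and -0.080. The 3 probe sets report on 1 gene in the same RNA and are not separate evidence, and which transcripts each of them detects was not examined. Groups lay apart in this direction for 16.7% of all probe sets and in the other for 17.3%, so that separation alone is common on these arrays. Of the 12 member probe sets, 4 were separated as lower, the 3 of Ednrb and 1 of Ece1, and 0 as higher. In whole hearts, fewer cells of a type that expresses a gene and less RNA per cell cannot be told apart.

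The angiotensin receptors differed little. Agtr1a, the main type 1 receptor gene in mice, lies on chromosome 13 from 30336356 to 30382867. Its signal was 9.53 and 9.73 in Jun delta mu hearts, against 9.73 and 9.50 in Jun f/f hearts. The replicates of each genotype differed by 0.20 and 0.23, far more than the means, which differed by 0.019 (standard error 0.13, interval -0.30 to 0.33). The sign depended on the array left out, between -0.098 and 0.14. Agtr1b encodes a closely similar receptor, and whether the probe set separates both genes was not examined. The probe set named Agtr1b was at 3.75 and 3.67 in Jun delta mu hearts and at 3.93 and 3.89 in Jun f/f hearts, not above the level of genes not expected in heart.

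Agtr2, the type 2 receptor gene, lies on chromosome X from 21484624 to 21488833. It was at 3.06 and 2.92 in Jun delta mu hearts and at 2.84 and 3.15 in Jun f/f hearts, the lowest signals among the 12 probe sets and within the lowest 4.39% of all probe sets on each array. At this level its difference of -0.0074 (standard error 0.13, interval -0.34 to 0.32) says little about the transcript, since neither genotype had a signal above that of genes not expected in heart.

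Across the 12 probe sets the median difference was 0.046, against 0.00075 over all probe sets, with 7 above 0 and 5 below. Calls as lower came to 1 of 12 and calls as higher to 0, against 0.959% and 0.568% of all probe sets. The 95% intervals of the other 11 all included 0. Of the 10 probe sets above the level of genes not expected in heart, 4 had their whole interval within 1.3-fold in either direction and 8 within 1.5-fold. With 2 arrays against 2, an exact permutation test of a single probe set cannot give a two-sided p below 0.333.

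**Figure D2:**
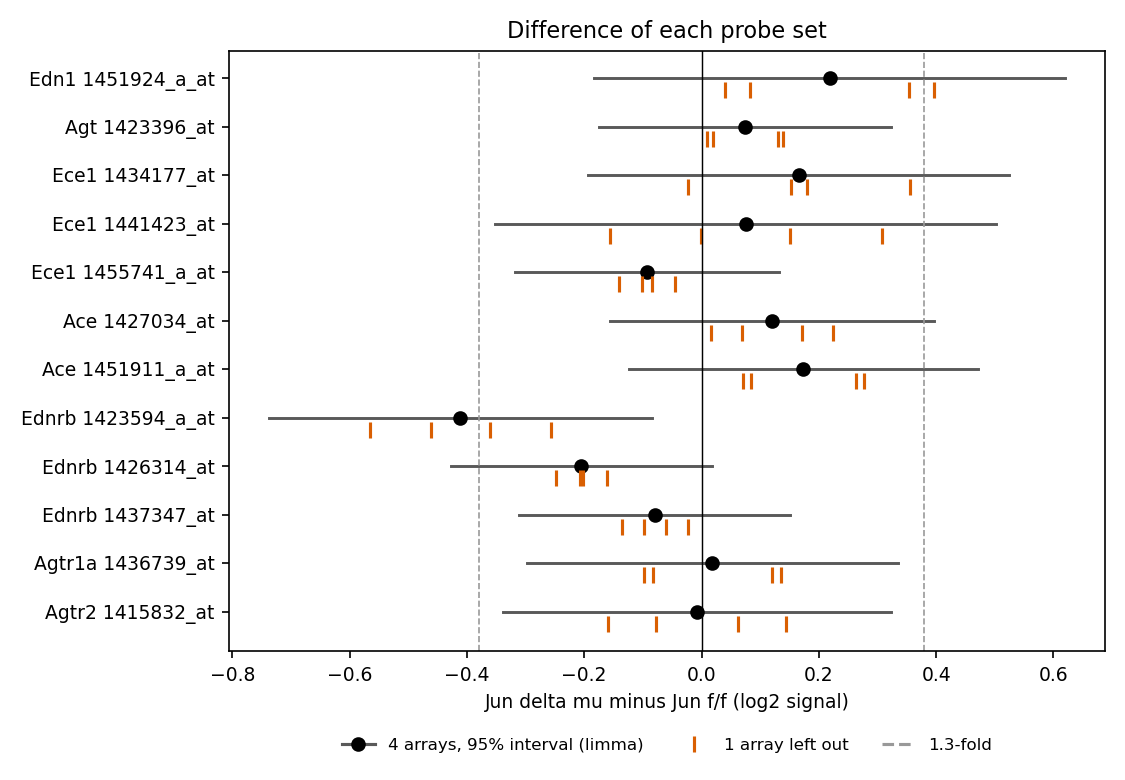
Difference of each of the 12 probe sets, Jun delta mu minus Jun f/f (log2 signal), as a point with its 95% interval from limma, and below it the 4 differences with 1 array left out. Probe set 1423594_a_at of Ednrb at -0.41 is the only point beyond 1.3-fold (dashed lines) and the only interval that leaves out 0.

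Taken by role, the probe sets were set against their own mean over the 4 arrays and averaged, as a description without a test. The 2 ligand probe sets deviated by 0.038 and 0.11 on the Jun delta mu arrays, against -0.19 and 0.044 on the Jun f/f arrays. The 5 enzyme probe sets deviated by -0.045 and 0.13 on the Jun delta mu arrays, against -0.12 and 0.029 on the Jun f/f arrays. The 5 receptor probe sets deviated by -0.097 and -0.040 on the Jun delta mu arrays, against 0.10 and 0.033 on the Jun f/f arrays. Ligands and enzymes were thus lowest, and receptors highest, on Jun f/f replicate 1, the array that stood apart. Only the receptors kept the genotypes on separate sides of their mean, and 3 of their 5 probe sets are those of Ednrb.

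**Figure D3:**
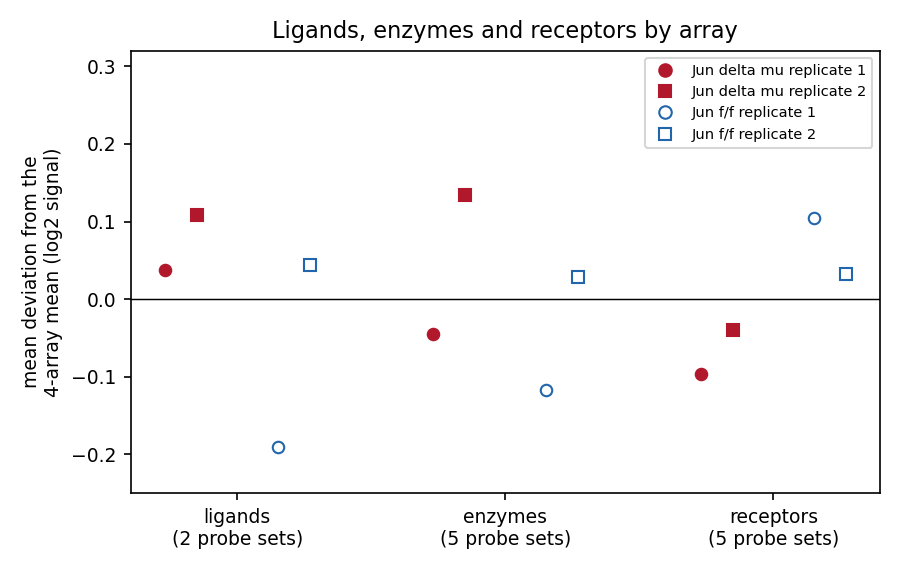
Mean deviation (log2 signal) of the ligand, enzyme and receptor probe sets from their own 4-array mean, on each Jun delta mu array (filled) and each Jun f/f array (open). Jun f/f replicate 1 is lowest for ligands (-0.19) and enzymes (-0.12) and highest for receptors (0.10).

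Other genes of both systems were read by the brightest probe set of each gene. Members were read by every probe set, and by the brightest alone none of them passed, Ednrb included (-0.080). Of 88 genes on 5 lists, 3 were higher past the threshold, 0 were lower and 85 did not pass, which is 3.41% past it, against 1.45% of all named genes in either direction, 0.665% as higher and 0.786% as lower. The 3 were Nln, Grk5 and Postn, each in the study's own table of genes picked on these arrays, and the median over the 88 was -0.017. For Postn the paper also reports higher RNA by quantitative RT-PCR and higher protein by Western blot in sham-operated Jun delta mu hearts. Itpr2 and Rgs3, which did not pass by their brightest probe set, each had 1 other that did. None of the 7 other endothelin genes passed. Among them, Mme, the neutral endopeptidase that degrades endothelins and natriuretic peptides, was at 6.50 and 6.61 in Jun delta mu hearts, against 7.03 and 6.72 in Jun f/f hearts (difference -0.32, standard error 0.13). Ece2, a relative of Ece1, differed by -0.13. Edn2, which encodes another endothelin, differed by 0.087 at a signal not above that of genes not expected in heart.

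Of 16 other angiotensin genes measured, Nln alone passed. It encodes neurolysin, a peptidase that can cut angiotensin I, bradykinin and neurotensin. Its signal was 7.22 and 7.36 in Jun delta mu hearts, against 6.95 and 6.56 in Jun f/f hearts, with both Jun delta mu arrays above both Jun f/f arrays. The difference was 0.54 (standard error 0.15, adjusted p = 0.896 in limma), and its other probe set, 1424981_at, was not above the level of genes not expected in heart on any array. It was 0.35 when Jun f/f replicate 2 was left out and 0.47 when Jun delta mu replicate 2 was, and it passed in neither case. Of the other angiotensin genes, Ctsg, the mast cell and neutrophil protease cathepsin G, differed by 0.21 and Agtr1b by -0.20, both at signals not above those of genes not expected in heart. Ren1, Ren2 and Lnpep were not analysed here.

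None of 15 genes of the kinin, aldosterone and nitric oxide systems passed. The largest differences were -0.26 for Gucy1b1 and -0.17 for Gucy1a1, the subunits of soluble guanylyl cyclase, the receptor for nitric oxide, and -0.20 for Nr3c2, the mineralocorticoid receptor. Of 31 genes of G-protein signalling below both receptor families, Grk5 passed, a kinase that desensitises G-protein-coupled receptors. Grk5 was at 9.88 and 9.80 in Jun delta mu hearts, against 9.50 and 9.39 in Jun f/f hearts. The difference was 0.40 (standard error 0.095, adjusted p = 0.896), both of its probe sets passed, and it also passed by Student's test. Leaving out Jun f/f replicate 2 gave 0.34 and leaving out Jun delta mu replicate 1 gave 0.35, neither of them past the threshold. Gnaq, the G-protein subunit that carries signals from both type 1 angiotensin and endothelin A receptors, differed by 0.0090, and Prkca, a kinase further down, by -0.018.

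Of 19 genes known to respond to angiotensin II or endothelin-1 in heart cells, Postn, the matrix protein periostin, was higher past the threshold, by 1.15 (standard error 0.30), and it did not pass when Jun f/f replicate 2 was left out, at 0.93. Without Jun delta mu replicate 2, the array with high atrial genes, it was 0.73 and passed. Its signal was 9.39 and 10.23 in Jun delta mu hearts, against 8.88 and 8.44 in Jun f/f hearts, so that the groups lay apart. The others did not pass, and they had both signs. Nppa, which encodes atrial natriuretic peptide, was at 12.34 and 12.79 in Jun delta mu hearts, against 11.88 and 12.40 in Jun f/f hearts. Its difference of 0.42 was 0.20 without Jun delta mu replicate 2. It passed when Jun f/f replicate 2 was left out, at 0.68, the setting in which the most probe sets passed. It also passed with the replicate number as a block, and under no other alternative run. Acta1 (skeletal α-actin) differed by -0.80 and Myh7 (β-myosin heavy chain) by -0.72, and both passed as lower without Jun delta mu replicate 2, at -1.28 and -1.14. The median of this list was -0.056, with 9 members above 0 and 10 below.

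**Figure D4:**
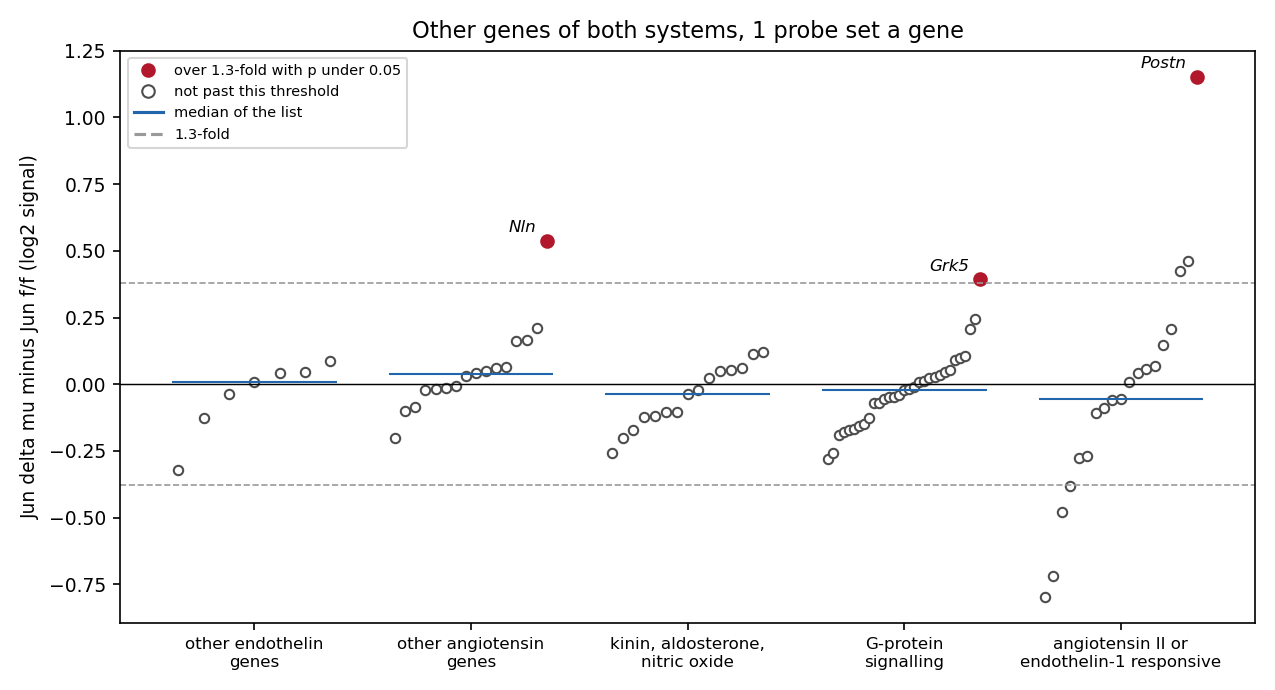
Difference of each of the 88 other genes of both systems, Jun delta mu minus Jun f/f (log2 signal), in 5 lists with the genes of a list sorted by value, filled red where past the study's threshold, and a line at each list's median. Nln, Grk5 and Postn are filled, and the medians lie between -0.056 and 0.037.

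Markers of the cell types that carry these receptors and enzymes were read beside these values. Of 10 endothelial markers none passed the threshold, but 7 were below 0 and 6 were separated as lower, against 16.7% of all probe sets, with a median of -0.082. Cldn5 differed the most, by -0.25. Tie1 differed by -0.24 and Kdr by -0.23, both receptors of vascular endothelium. The 3 above 0 were Vwf at 0.12, Erg at 0.012 and Cdh5 at 0.0042. The summed linear signal of the endothelial markers was 5217 to 5245 on the Jun delta mu arrays and 5524 to 5741 on the Jun f/f arrays, and none of them was at background. Of 10 markers of smooth muscle and pericytes 1 passed as lower, against 0.786% of all named genes, and 7 were below 0, with a median of -0.17. The 1 was Cnn1, at 4.67 and 5.11 in Jun delta mu hearts and 5.81 and 5.31 in Jun f/f hearts. It was above the level of genes not expected in heart on Jun f/f replicate 1 alone, and its difference of -0.67 did not pass without that array, at -0.42, or without Jun delta mu replicate 1, at -0.45. The sum of the list was 8167 to 8241 on the Jun delta mu arrays and 8536 to 8671 on the Jun f/f arrays. Its brightest gene was Abcc9, which differed by 0.081.

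Ednrb is also known from Schwann cells and melanocytes. Of 8 markers of these cells measured, 4 were above 0 and 4 below, with a median of 0.0033. Sox10, a transcription factor of both cell types, was at 6.46 and 6.55 in Jun delta mu hearts and 6.21 and 6.43 in Jun f/f hearts, with the Jun delta mu arrays above. Dct, a melanocyte enzyme, passed as lower, at 5.36 and 5.99 in Jun delta mu hearts and 6.73 and 6.20 in Jun f/f hearts, a difference of -0.79 that did not pass without Jun f/f replicate 1, at -0.53, or without Jun delta mu replicate 1, at -0.47. The melanocyte genes Tyr, Tyrp1 and Mlana and the genes S100b and Foxd3 were not above the level of genes not expected in heart. The sum of the list was 1543 to 1651 on the Jun delta mu arrays and 1661 to 1737 on the Jun f/f arrays, and most of it was the signal of Mitf, which differed by -0.083. Of 10 fibroblast markers 8 were above 0, 5 were separated as higher, against 17.3% of all probe sets, and 0 as lower, with a median of 0.12. Mfap5 passed as higher at 0.51, whichever array was left out, and Lum and Dpt, which did not pass, differed by 0.32 and 0.31. The summed signal of the fibroblast markers, in which Dcn is the brightest, overlapped between genotypes. That of the 6 atrial markers was 5794 and 8855 on the Jun delta mu arrays and 4253 and 5919 on the Jun f/f arrays, with Nppa the brightest and Jun delta mu replicate 2 highest. The part of these cell types in the values of Ednrb, Edn1, Ace, Postn or Nppa was not tested.

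The genes whose pattern over the 4 arrays came closest to probe set 1423594_a_at of Ednrb, by the distance between signals centred on their means, were Prkar1b, Lrrc8d and Atm, at distances of 0.041 to 0.047 on the log2 scale among 34942 probe sets. They differed by -0.41, -0.37 and -0.41. Prkar1b was not above the level of genes not expected in heart on any array. With 4 arrays such likeness is a description only.

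The AP-1 letters TGANTCA, a site at which c-Jun acts, read the same on both strands. In windows from 250 bases before to 50 after the RefSeq starts on GRCm38.p6, these letters were in 7.81% of 32851 windows and in 0 of the 11 windows of 7 members, Ednra included. Agtr1a was not covered. Only exact matches were sought, so variants of these letters, such as TGACTAA in the Edn1 window, were not counted. The exact letters were thus not in these windows, which says nothing of such variants or of sites elsewhere.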

How the data were processed

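Gene expression was measured in 4 hearts, 2 per genotype, and the sources used here say nothing of pooling. The deposited values are log2 signals, made by the authors with AGCC software and, per the submitters' notes, RMA in the package oligo (no version given), which subtracts background and normalizes between arrays. They cover 45101 probe sets with 0 missing values and no detection calls. RMA compresses differences of dim probe sets. The 64 AFFX controls were left out and the other 45037 were fitted without a filter. Precision is limited by the number of arrays, with 2 residual degrees of freedom for each probe set. The p-values of limma rest on the spread between these hearts, drawn towards a spread shared over all probe sets. Those of Student's test rest on the spread of each probe set alone.

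The fit used limma 3.58.1 under R 4.3.3 (lmFit, eBayes) with genotype alone in the model, two-sided tests and Benjamini-Hochberg adjustment across the table. In the platform annotation 34945 probe sets have 1 gene, 932 have several and 9160 are unnamed. Positions, older symbols and promoter windows came from RefSeq (GRCm38.p6). Members, lists and tests were chosen with earlier results of these data known. Named were all members, list genes past the threshold or else the 3 largest differences of a list, Jun, markers where an array stood apart, and the 3 nearest patterns. Ctsg, Agtr1b, Gnaq, Prkca, Nppa, Acta1, Myh7, Tie1, Kdr, Cnn1, Sox10, Dct, Mitf, Mfap5, Lum, Dpt and Dcn were chosen after their values were seen. So were Cldn5, Vwf, Erg, Cdh5, Abcc9, Itpr2 and Rgs3. Alternatives were Student's test, a block for replicate number, a prior that is trended and robust, removal of the 40% dimmest probe sets, quantile, median and cyclic loess normalization, the median per gene, and leaving out each array. The fitting was tested on simulated data. Figures were drawn with matplotlib 3.10.9.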

Additional observations from a re-analysis of the deposited data

How the results depend on the processing

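The count of 0 members called as higher was the same under every alternative run. That of members called as lower, 1, was 0 with Student's test and 0 to 1 with an array left out. Other genes of both systems called as higher, 3, came to 1 with Student's test (Grk5), to 4 with the replicate block, where Nppa was added, and to 2 to 4 with an array left out. Those called as lower, 0, came to 1 with the replicate block (Acta1), to 2 with a trended robust prior (Acta1 and Myh7) and to 0 to 4 with an array left out. Of all probe sets, 256 passed as higher and 432 as lower. With Student's test these were 89 and 111, without the 40% dimmest probe sets 158 were higher, and with an array left out 320 to 1466 were higher and 419 to 1986 lower, the most without Jun f/f replicate 2. The replicate block gave 254 and 429. Both Jun probe sets passed under every alternative run, at -1.92 to -1.22 and -1.43 to -1.05 with an array left out.

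The sign of 8 of the 12 member probe sets held under every alternative run. For 4 it turned with an array left out, Ece1 at -0.024 to 0.36 by 1434177_at and -0.16 to 0.31 by 1441423_at, Agtr1a at -0.098 to 0.14 and Agtr2 at -0.16 to 0.14. The deviations of the arrays numbered 1 from their group means correlated at 0.028 across probe sets. This value covers all probe sets together, so whether arrays of the same number share a batch cannot be told from it. With the replicate block the difference of Ednrb (1423594_a_at) stayed past the threshold at -0.41, and 1 member was called as lower, as without it. The 40% filter removed Agtr2 and 1441423_at. Where 1 array of a genotype remained, its spread was taken from the other genotype, and the cause of the changes was not tested.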
